A study of Mus musculus with 6 samples.

Results

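Matrix metalloproteinases and their inhibitors were followed in mouse leukemia cells given an inhibitor of the histone demethylase LSD1. The group was defined as a list of 9 genes: the metalloproteinase genes Mmp8, Mmp9, Mmp14, Mmp19 and Mmp25, the related surface protease gene Adam8, and the inhibitor genes Timp1, Timp2 and Timp3. Of these, 7 had a row among the 15035 genes of the expression table, and Mmp25 and Timp3 were not analysed here. RNA-seq was done on 6 libraries from bone marrow cells of BALB/c mice, the cells transduced by retrovirus with mutant CSF3R, which encodes the G-CSF receptor of the neutrophil lineage, and with mutant CEBPA, which encodes a myeloid transcription factor. Both groups carried both mutant genes and grew in the same serum-containing medium. In 3 libraries the cells had received the solvent DMSO, and in 3 they had received 4 nM GSK-LSD1, each for 48 h. The labels name neither the animals nor the cultures behind the libraries of a group, so that the spread behind each p-value may be technical.

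Matrix metalloproteinases are zinc-dependent endopeptidases that are made as inactive precursors and together cut most proteins of the extracellular matrix. TIMPs, the tissue inhibitors of metalloproteinases, bind the active site of these enzymes and block it. In maturing neutrophils the collagenase MMP8 is stored in secondary granules and the gelatinase MMP9 mainly in gelatinase granules, while monocytes and macrophages make further members of the family.

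Depth was alike in all libraries, from 9572638 to 10199533 reads if the lowest value above 0 stands for 1 read. Values are scaled read counts, that is, reads divided by a factor per library. Of 9 markers of myeloid leukemia cells all were present, with Mpo, the myeloperoxidase gene, highest (mean over the 6 libraries 8171), although Kit, the stem cell factor receptor gene, was at 29.6 with DMSO. The mast cell and basophil markers Cpa3, Mcpt8 and Fcer1a were high as well, at 14320, 2813 and 5758 with DMSO. The marker sums of both groups are given at the end.

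The start regions of the genes Mmp8 and Timp1 are shown because these genes had large rises and their sequences could be read from the RefSeq table, which matched 7 of the 9 genes. The 250 bases before the RefSeq start are given 5′ to 3′ in the direction of the gene (build GRCm38.p6). The Mmp8 window is chr9:7558179-7558428 on the plus strand and the Timp1 window is chrX:20869916-20870165 on the plus strand. Capitals mark letters that match 1 of 7 short motifs searched.
Mmp8: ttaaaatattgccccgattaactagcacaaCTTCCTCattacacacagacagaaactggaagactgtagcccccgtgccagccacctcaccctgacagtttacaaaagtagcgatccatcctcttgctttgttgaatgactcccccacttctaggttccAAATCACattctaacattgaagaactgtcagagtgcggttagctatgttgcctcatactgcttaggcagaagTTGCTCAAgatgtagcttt
Timp1: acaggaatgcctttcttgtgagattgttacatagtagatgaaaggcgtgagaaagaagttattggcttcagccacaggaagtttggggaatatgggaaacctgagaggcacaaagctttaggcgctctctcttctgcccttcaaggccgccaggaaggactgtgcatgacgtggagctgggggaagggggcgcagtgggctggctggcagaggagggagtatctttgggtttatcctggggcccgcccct
The Mmp8 window held 3 matches, which do not overlap. The GFI1 motif, searched as AAATCAC, began 91 bases before the start and was found in 2.75% of all 32851 windows of this length. The PU.1 motif GAGGAAG lay on the other strand, beginning 220 bases before the start (10.6% of windows), and the C/EBP motif TTGCNNAA began 19 bases before it (9.56% of windows). The Timp1 window held none of the 7. The other motifs were AP-1, searched as TGANTCA (6.75% of windows), STAT, searched as TTCNNNGAA (7.02% of windows), and RUNX, searched as TGTGGT (14.0% of windows). The letters TATAAA of the core promoter box were searched on the gene's strand only (7.59% of windows), and all other motifs on both strands. These matches describe letters and were not tested as binding sites.

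After 48 h of GSK-LSD1 the granule protease genes Mmp8 and Mmp9 and the inhibitor genes Timp1 and Timp2 were higher, Mmp19 was moderately higher, and Adam8 and Mmp14 did not pass the test. In a limma fit to all 15035 rows, which tested each of the 7 genes, 5 were higher with an adjusted p under 0.05, as were 16.4% of all rows, and Adam8 and Mmp14 were not past the threshold. With a filter on low values, which asks for a value of at least 10 in at least 3 libraries, 6 of the 7 were tested and the calls were the same 5, where 20.6% of the 11588 genes tested were higher and 20.5% lower. In 5 of the 7 genes every GSK-LSD1 library lay above every DMSO library, as it did in 21.6% of all rows. Mmp9, Timp1 and Timp2 would not have passed this filter without the GSK-LSD1 libraries, so that their statistics below are from the fit to all rows. In RNA from a bulk culture, more cells of a type and more RNA per cell cannot be told apart. The values of each library are shown in the plot of the 7 genes.

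**Figure D1:**
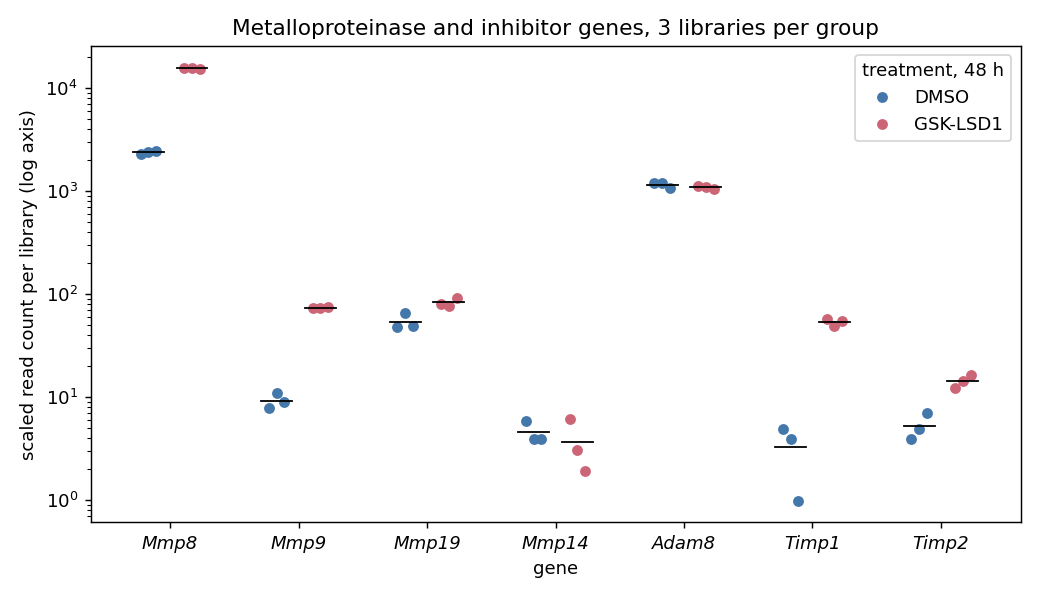
Scaled read counts (log axis) of the 7 genes in each of 3 DMSO and 3 GSK-LSD1 libraries, with a bar at the mean of each group. The groups are apart for Mmp8, Mmp9, Mmp19, Timp1 and Timp2 and overlap for Mmp14 and Adam8.

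Mmp8 encodes the neutrophil collagenase, which cleaves fibrillar collagens (chromosome 9, 7558456 to 7568485, GRCm38, 10 exons). Its values were 2314, 2377 and 2436 in the DMSO libraries and 15770, 15729 and 15237 in the GSK-LSD1 libraries. The groups were far apart, and the libraries within each lay close together. The fitted log2 fold change was 2.71 (SE 0.0425), a 6.56-fold rise (limma adjusted p = 5.47e-34). Mmp8 went from 859, 840 and 813 in the order of the most abundant genes of each DMSO library to 29, 31 and 32 in the GSK-LSD1 libraries, in replicate order. It took 0.0232% to 0.0241% of the total value with DMSO and 0.154% to 0.160% with GSK-LSD1.

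Mmp9 encodes gelatinase B, which cleaves denatured collagen and basement membrane collagen (chromosome 2, 164940780 to 164955850, 15 exons). It was a minor transcript, at 7.81, 10.9 and 8.96 with DMSO and 73.5, 73.5 and 74.9 with GSK-LSD1. No library of either group came near the other group. The log2 fold change was 2.89 (SE 0.236, limma adjusted p = 1.02e-09). Reads are given on the assumption that the smallest value above 0 in a library is 1 read. Low values were whole multiples of it in all 6 libraries, but in 2 DMSO libraries the smallest value is so close to 1 that this did not meet the criterion for a count test. Summed over each group, 28 reads with DMSO stood against 220 with GSK-LSD1, or 8.03 times as many after scaling (95% counting interval 5.40 to 12.4). This interval, exact from the binomial distribution, covers counting error only, as do those below. The 95% confidence intervals of the log2 fold changes, 2.63 to 2.80 for Mmp8 and 2.40 to 3.37 for Mmp9, overlapped. A difference between the rises of these genes was not tested. In units of value per kb of exon, the Mmp8 level was 318 to 432 times the Mmp9 level with DMSO and 297 to 313 times with GSK-LSD1.

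Mmp19 encodes a broadly expressed secreted metalloproteinase (chromosome 10, 128790910 to 128800824, 9 exons). Its values were 47.9, 65.4 and 48.8 with DMSO and 79.6, 77.6 and 92.5 with GSK-LSD1. All 3 GSK-LSD1 libraries lay above the DMSO libraries, but the gap between the nearest libraries was smaller than the range among the DMSO libraries. The log2 fold change was 0.62 (SE 0.160), a 1.54-fold rise (limma adjusted p = 0.00184). Its exons share 789 bases, 22.3% of its exon length, with Tmem198b on the other strand. Tmem198b averaged 127 with DMSO and 163 with GSK-LSD1, and whether reads were counted by strand is unknown from the sources, so that the value of Mmp19 is uncertain.

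Mmp14 encodes the membrane-anchored enzyme MT1-MMP, which activates the MMP2 precursor with TIMP2 as adaptor (chromosome 14, 54431612 to 54445364, 11 exons). It was near the limit of detection, at 5.86, 3.96 and 3.98 with DMSO and 6.12, 3.11 and 1.95 with GSK-LSD1. The groups overlapped. Over the 3 libraries of a group, 14 reads with DMSO stood against 11, or 0.803 times as many after scaling (counting interval 0.330 to 1.90), and a difference within that range was not detectable at this depth. The fit to all rows gave a log2 fold change of -0.33 with a 95% confidence interval of -1.24 to 0.59 (limma adjusted p = 0.616). Mmp2, which encodes the gelatinase that MT1-MMP activates, had at most 1 read in any library.

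Adam8 encodes a membrane protease of leukocytes that sheds surface proteins (chromosome 7, 139978932 to 139992562, 21 exons). It was the next most abundant of the 7 genes after Mmp8. Its values were 1198, 1197 and 1071 with DMSO and 1119, 1102 and 1059 with GSK-LSD1, so that the groups overlapped. The log2 fold change was -0.08 with a 95% confidence interval of -0.19 to 0.03 (limma adjusted p = 0.265). Without DMSO replicate 3 the log2 fold change was -0.13 (limma adjusted p = 0.0486).

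Timp1 encodes a secreted inhibitor that binds many metalloproteinases and the MMP9 precursor (chromosome X, 20870166 to 20874735, 6 exons). It was nearly silent with DMSO, at 4.88, 3.96 and 0.995, and reached 57.1, 49.7 and 55.5 with GSK-LSD1. The groups lay far apart in all libraries, and with all libraries and a pseudocount of 1 Timp1 had the largest fitted rise of the 7 genes. In reads this was 5, 4 and 1 in the DMSO libraries and 56, 48 and 57 in the GSK-LSD1 libraries, or 16.4 times as many after scaling (counting interval 8.72 to 35.0). The log2 fold change was 3.83 (SE 0.356, limma adjusted p = 9.68e-09). Its 95% confidence interval, 3.09 to 4.56, lay above that of Mmp8 and overlapped that of Mmp9. In 3 alternatives with the filter the Timp1 and Mmp8 intervals overlapped: with a pseudocount of 5 in place of 1 (Timp1 2.87, 2.39 to 3.34), under quantile scaling (3.34, 2.66 to 4.01) and without DMSO replicate 3 (3.35, 2.76 to 3.93). Timp1 lies inside Syn1, a synapsin gene on the other strand, with which it shares 0 exon bases. Syn1 averaged 0.662 with DMSO and 3.39 with GSK-LSD1.

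Timp2 encodes the inhibitor that also serves as the adaptor of MT1-MMP (chromosome 11, 118301069 to 118355740, 6 exons). Its values were 3.91, 4.95 and 6.97 with DMSO and 12.2, 14.5 and 16.5 with GSK-LSD1. The groups did not overlap. In reads, 16 stood against 43, or 2.75 times as many after scaling (counting interval 1.52 to 5.22). The log2 fold change was 1.32 (SE 0.348, limma adjusted p = 0.00501). With the filter and quantile scaling it was 0.89 and not past the threshold (limma adjusted p = 0.0545). The intervals of the 7 genes and of other family members are drawn in the plot of fitted changes.

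**Figure D2:**
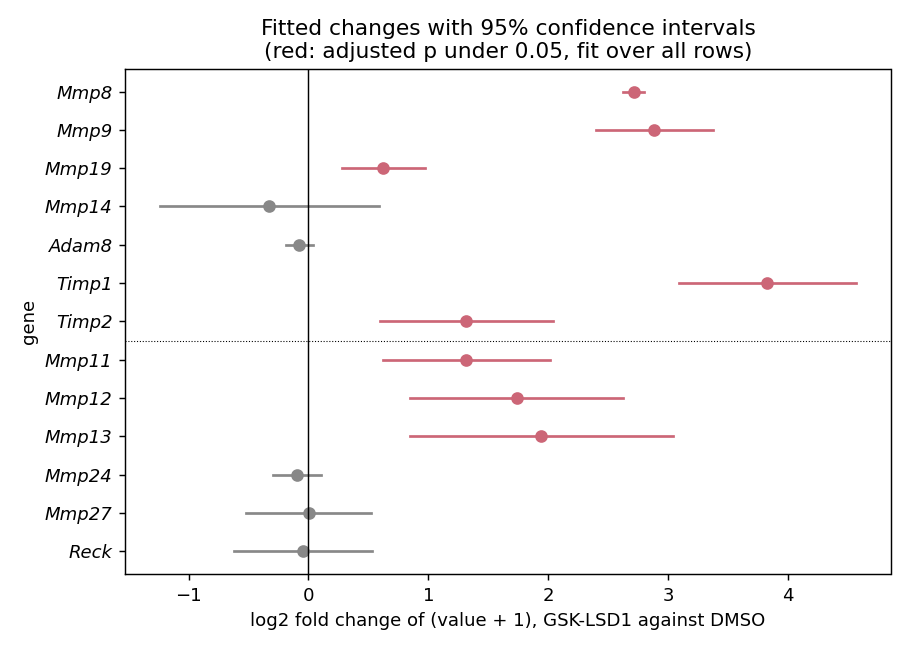
Fitted log2 fold changes of (value + 1), GSK-LSD1 against DMSO, as points with 95% confidence intervals, for the 7 genes (above the dotted line) and for 6 other family genes (below it), from the limma fit to all rows. Red marks an adjusted p under 0.05, and the interval of Mmp8 is the narrowest of the red ones.

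Levels of different genes were compared per kb of exon. With DMSO the order was Mmp8 (980 ± 25.2 per kb, SD, n = 3), Adam8 (249 ± 15.8), Mmp19 (15.3 ± 2.80), Timp1 (3.69 ± 2.29), Mmp9 (2.61 ± 0.441), Timp2 (1.35 ± 0.399) and Mmp14 (0.772 ± 0.183). Of the neighbours in this order, Timp1 and Mmp9 overlapped between libraries. With GSK-LSD1 the order was Mmp8 (6424 ± 122), Adam8 (236 ± 6.71), Timp1 (60.9 ± 4.40), Mmp19 (23.6 ± 2.28), Mmp9 (20.9 ± 0.240), Timp2 (3.70 ± 0.552) and Mmp14 (0.625 ± 0.362), with no overlap between neighbours. Timp1 thus moved ahead of Mmp19. The summed value of the 7 genes went from between 3577 and 3663 to between 16538 and 17117, of which Mmp8 took 64.6% to 68.1% with DMSO and 92.1% to 92.3% with GSK-LSD1.

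Pairs of enzyme and inhibitor were compared as ratios of values per kb within a library. The ratio of Mmp9 to its inhibitor Timp1 was 0.402, 0.690 and 2.26 with DMSO and 0.323, 0.371 and 0.339 with GSK-LSD1. The DMSO ratios rest on 5, 4 and 1 Timp1 reads and vary accordingly, while the GSK-LSD1 ratios lay close together, below all of them. The ratio of Mmp8 to Timp1 was 174, 220 and 896 with DMSO and 101, 116 and 101 with GSK-LSD1. For Mmp14 and Timp2 the ratio was 0.981, 0.523 and 0.374 with DMSO and 0.327, 0.140 and 0.0769 with GSK-LSD1. In these 3 pairs the GSK-LSD1 ratios were the lower ones without overlap, although the nearest Mmp9 to Timp1 ratios, 0.402 and 0.371, lay close together and the Mmp14 ratios rest on few reads. With Timp2 as the inhibitor of the other enzymes the order was the opposite. The ratio of Mmp8 to Timp2 was 951.5, 771 and 562 with DMSO and 2069, 1744 and 1480 with GSK-LSD1. The ratio of Mmp9 to Timp2 was 2.20, 2.42 and 1.42 with DMSO and 6.61, 5.58 and 4.99 with GSK-LSD1. No p is given for these ratios.

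Mmp8 lies in a cluster of metalloproteinase genes on chromosome 9, and its neighbours in that cluster were at much lower levels. Mmp27, whose start is 12.9 kb from that of Mmp8 (chromosome 9, 7571396 to 7581885), averaged 25.3 ± 2.99 in the DMSO and 25.7 ± 5.68 in the GSK-LSD1 libraries (SD, n = 3), with a log2 fold change of 0.001 (limma adjusted p = 0.999). Mmp10, 56.1 kb to the other side, and Mmp20, 69.8 kb away, had mean values under 1 in both groups. Mmp12, the macrophage elastase gene 214 kb away, went from 2.95 ± 1.67 to 12.4 ± 5.52, and the collagenase gene Mmp13, 286 kb away, from 1.66 ± 2.07 to 7.70 ± 3.17. Both were under the filter on low values, and both were higher in the fit to all rows (limma adjusted p = 0.00303 and 0.00640). Beyond the cluster, Dcun1d5 had a log2 fold change of -0.20, Tmem123 of 0.21, Birc3 of 0.25 and Dync2h1 of 0.21, all past the threshold, and Birc2 was not (0.02). Dync2h1 lost its call in the fit to all rows (limma adjusted p = 0.0591). Cep126, 518 kb away, rose from 17.1 ± 6.54 to 54.4 ± 3.48 (limma adjusted p = 2.13e-05 in the fit to all rows). It too would not have passed the filter without the GSK-LSD1 libraries. These neighbours outside the family are the genes within 700 kb of Mmp8 that passed the filter on low values.

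**Figure D3:**
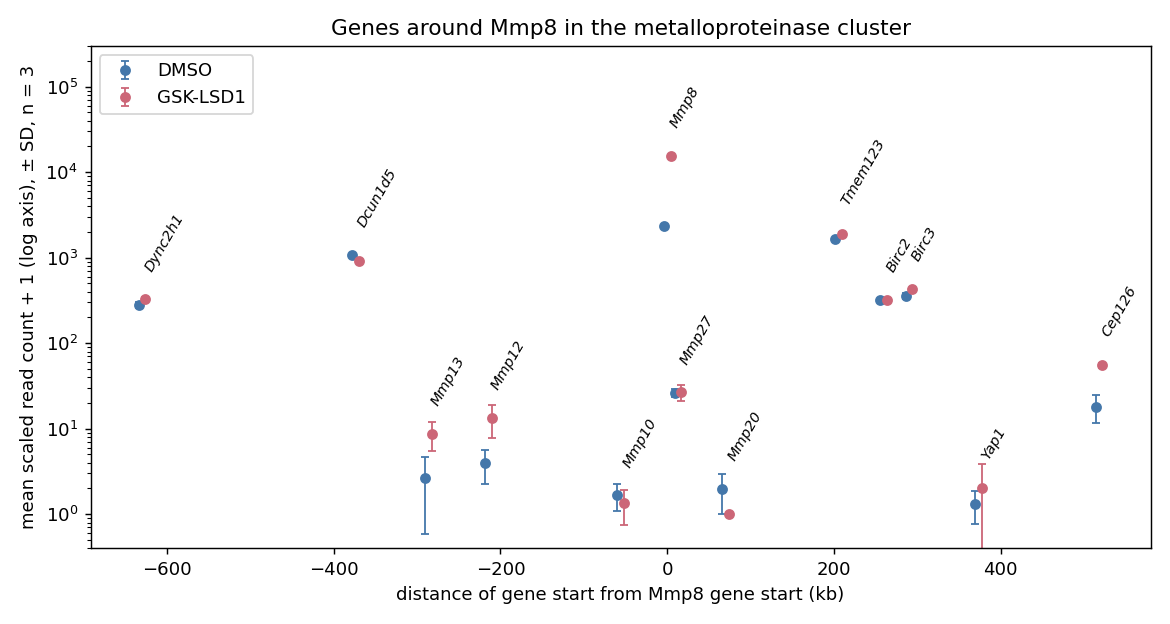
Mean scaled read count + 1 (log axis, ± SD, n = 3 per group) of the genes with a value near Mmp8, against the distance of each gene's start from that of Mmp8 in kb. Mmp8 lies far above its metalloproteinase neighbours, and Mmp27, the nearest, averages 25.3 with DMSO and 25.7 with GSK-LSD1.

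Of 20 other metalloproteinase and inhibitor genes listed, 14 had values and 4 passed the filter on low values, with a median log2 fold change of -0.02, beside -0.01 over all genes tested. Under quantile scaling these medians were -0.21 and -0.05, and over the 14 genes in the fit to all rows the list's median was -0.07, beside 0.01 over all rows. Mmp11, the stromelysin-3 gene, rose from 8.54 ± 3.64 to 22.6 ± 7.99 (limma adjusted p = 0.00397 in the fit to all rows). It would not have passed the filter without the GSK-LSD1 libraries. Of its exon bases, 155 overlap Chchd10 on the other strand. Mmp24, Mmp27 and Reck, which encodes a membrane-bound inhibitor, were not past the threshold, with log2 fold changes of -0.10, 0.001 and -0.04. Mmp24 was the most abundant of the 4, at 204 ± 16.9 with DMSO and 190 ± 12.8 with GSK-LSD1. Its exons share 637 bases, 13.6% of its exon length, with BC029722 on the other strand. Timp4 had at most 1 read in any library.

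Among 12 other tested genes of the ADAM and ADAMTS families, 8 were higher and 3 lower, with a median log2 fold change of 0.30. Over all genes tested, 20.6% were higher and 20.5% lower. Adamts15, Adamts9 and Adamts6 would not have passed the filter without the GSK-LSD1 libraries, which raises this count and median. In the fit to all rows, 8 of the 19 with values were higher and 3 lower, with a median of 0.21. Of all 15035 rows, 2471 were higher and 2335 lower in that fit. Adam9, Adam10 and Adam15, broadly expressed sheddases, rose with log2 fold changes of 0.22, 0.13 and 0.39, and Adam17, the main sheddase of TNF, was not past the threshold (0.11, limma adjusted p = 0.112). Of the secreted ADAMTS enzymes, Adamts15 rose from 2.30 ± 2.50 to 40.2 ± 7.27, Adamts9 from 6.59 ± 1.16 to 32.8 ± 10.4, Adamts6 from 8.89 ± 2.01 to 17.9 ± 3.13 and Adamts17 from 66.5 ± 9.78 to 108 ± 15.2. Adamts3, a procollagen processing enzyme, fell from 85.9 ± 5.66 to 38.1 ± 5.36, and Adamts20 from 93.1 ± 9.17 to 55.8 ± 3.88. Adam11 fell as well, with a log2 fold change of -0.20. Exons of Adam15 and Adamts9 overlap genes on the other strand by 20.6% and 9.18% of their length.

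The plasminogen system makes plasmin, which can activate metalloproteinase precursors. Of the 6 genes of this list that were tested and are reported here, 3 were higher and 1 lower. Over all genes tested, 20.6% were higher and 20.5% lower. The median log2 fold change of the list was 0.41, and 0.27 under quantile scaling. Over the 9 with values in the fit to all rows it was 0.32. Plau, the urokinase gene, rose from 13.8 ± 0.889 to 29.9 ± 0.978, its receptor gene Plaur from 134 ± 14.7 to 238 ± 31.1, and the plasminogen receptor gene Plgrkt from 334 ± 15.7 to 474 ± 13.4. Anxa2, which encodes a docking protein of the same system, fell slightly (log2 fold change -0.16).

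Of 16 tested genes for activation, anchoring and clearance of metalloproteinases, 6 were higher and 7 lower, with a median log2 fold change of -0.02. Over all genes tested, 20.6% were higher and 20.5% lower. In the fit to all rows, over the 20 with values, 6 were higher and 8 lower and the median was -0.31. Of all 15035 rows, 2471 were higher and 2335 lower in that fit, with a median of 0.01. Lrp1, which encodes a receptor that takes up metalloproteinases and their complexes, rose from 33.6 ± 0.335 to 166 ± 5.31. Thbs1, the thrombospondin gene, rose from 329 ± 9.77 to 1296 ± 22.4 and the integrin genes Itgam and Itgb3 rose 3.53-fold and 2.39-fold. Itgam encodes the chain of the neutrophil integrin that pairs with the product of Itgb2, which was not past the threshold (-0.12), and 68.7% of its exon length is shared with the gene model Gm49368 on the same strand. Lcn2, whose product binds MMP9 in human neutrophils, rose 2.23-fold. Furin, which encodes the convertase that activates membrane-type metalloproteinases, fell from 4247 ± 210 to 3061 ± 6.83, and the serine protease genes Elane and Prtn3 and the integrin gene Itgav fell with log2 fold changes of -0.92, -0.67 and -0.77. Bsg, which encodes the metalloproteinase inducer basigin, fell by 0.26 on the log2 scale.

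**Figure D4:**
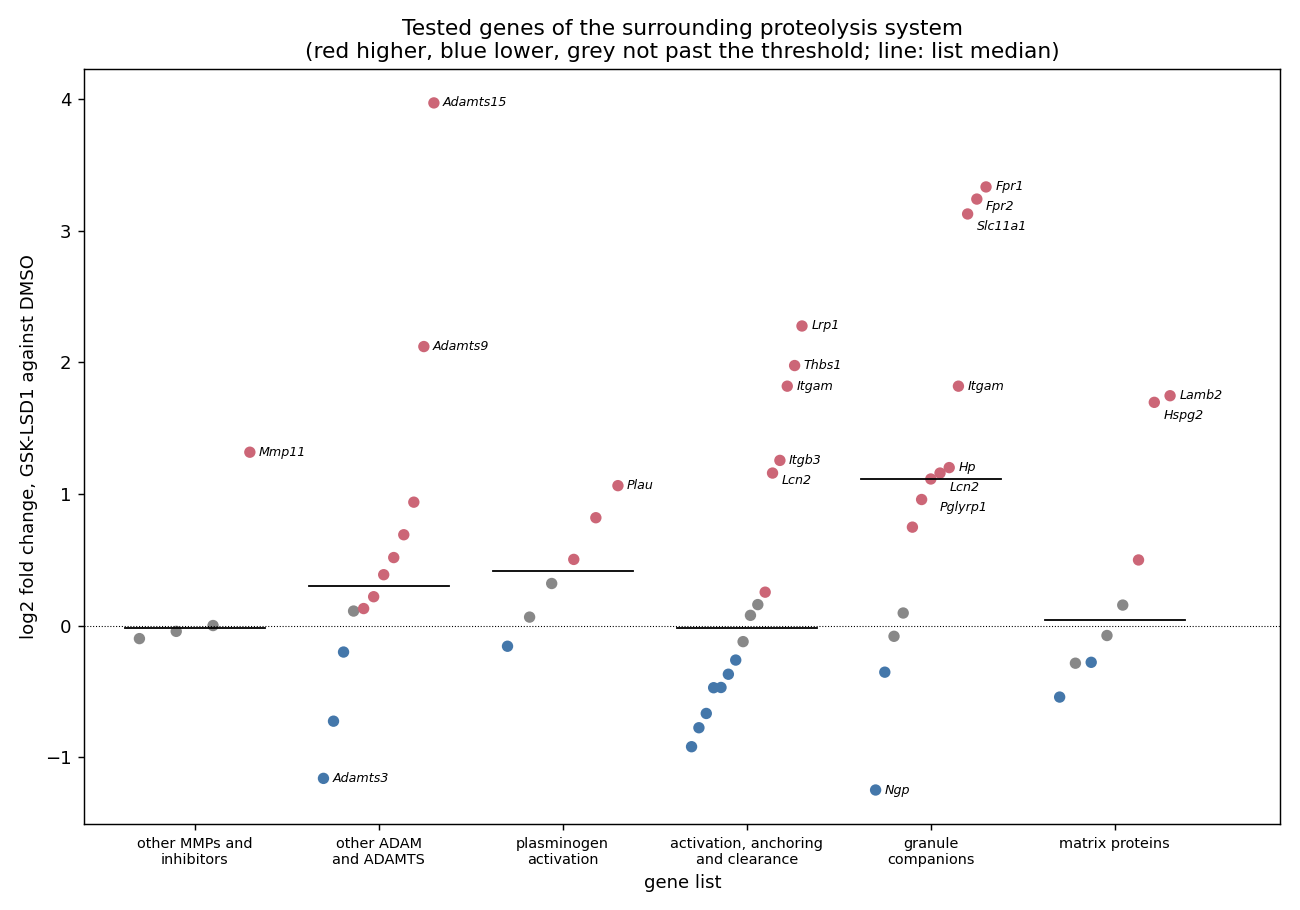
Log2 fold changes of the tested genes in 6 lists around the metalloproteinases, GSK-LSD1 against DMSO, 1 point per gene, with a line at the median of each list. Red points were higher, blue lower and grey not past the threshold; Adamts15 lies at 3.97 and Ngp at -1.25.

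Of 13 tested genes for companions of Mmp8 and Mmp9 in secondary and gelatinase granules, 9 were higher and 2 lower. Over all genes tested, 20.6% were higher and 20.5% lower. The median log2 fold change of the list was 1.11, and 0.95 under quantile scaling. Fpr1, Fpr2 and Slc11a1 would not have passed the filter without the GSK-LSD1 libraries, which raises this count and median. In the fit to all rows, 9 of the 16 with values were higher and 2 lower, with a median of 0.85. Of all 15035 rows, 2471 were higher and 2335 lower in that fit. Fpr1 and Fpr2, which encode receptors for bacterial formyl peptides, and the metal transporter gene Slc11a1 had log2 fold changes of 3.33, 3.24 and 3.13, and Ngp and Chil3 fell (-1.25 and -0.35). Hp and Cd177 rose from 169 ± 16.2 to 388 ± 23.7 and from 46.4 ± 8.11 to 90.5 ± 9.42. Lcn2, Pglyrp1, Cybb and Itgam rose as well, with log2 fold changes of 1.16, 1.11, 0.75 and 1.82. Some secondary granule genes of the list did not rise with them. Besides Ngp, which fell, Ltf, the lactoferrin gene, was below the filter at 4.94 ± 1.98 and 2.01 ± 1.74. Olfm4 was below it too, at 11.5 ± 6.03 and 5.77 ± 2.47. Neither was past the threshold in the fit to all rows (limma adjusted p = 0.0982 and 0.127), and Camp had no value. Among 8 tested genes of matrix proteins, 3 were higher and 2 lower, beside 20.6% and 20.5% of all genes tested. Lamb2 and Hspg2, of basement membrane, and Col1a1 rose with log2 fold changes of 1.75, 1.70 and 0.50, although Col1a1 was not past the threshold in the fit to all rows (limma adjusted p = 0.0636), while the laminin chain genes Lamc1 and Lama5 fell (-0.54 and -0.28). The median of this list was 0.04, -0.10 under quantile scaling and 0.46 over the 15 genes with values in the fit to all rows.

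By the shape of their values over the 6 libraries, the genes nearest to Mmp8 among 9434 compared were Alox15, Gfi1b and Bst1. The measure was the root mean square distance of log2(value + 1) after the mean of each gene was removed, and it was 0.0780, 0.0962 and 0.102. For Mmp9 the nearest were Gfi1b (0.102), Mmp8 (0.148) and Spsb1 (0.151). Timp1 had no neighbour as near, with Scpep1 at 0.325, Il1f9 at 0.362 and Cdc42bpb at 0.438. The distance depends on the size of the difference between the groups and on the scatter within them. Scpep1 had nearly the log2 fold change of Timp1, 3.795 against 3.83. The DMSO values of Timp1 rest on 5, 4 and 1 reads, and the part of their scatter in its distances was not tested.

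Markers of other cell types went in different directions, beside 20.6% of all genes tested that were higher and 20.5% that were lower. Of 6 endothelium markers, 2 had values, with a sum of 106 to 107.5 with DMSO and 83.7 to 109 with GSK-LSD1. The 1 tested was not past the threshold. Of 6 T and B lymphocyte markers, 3 had values, summing to 3.91 to 6.94 and then 6.21 to 15.3. None passed the filter, and Cd3g was higher in the fit to all rows (limma adjusted p = 0.0301). Of 5 mature neutrophil markers, 4 had values, and their sum was 2129 to 2410 with DMSO and 5929.5 to 6142 with GSK-LSD1. Cxcr2, S100a8 and S100a9 rose, while Retnlg was at 0 in all DMSO libraries and averaged 3.05 with GSK-LSD1. Of 8 macrophage markers, 4 had values, and their sum went from between 89.6 and 108 to between 331 and 339.5, with Adgre1, Csf1r and Cd68 higher and Mrc1 near 0. Csf1r would not have passed the filter without the GSK-LSD1 libraries. In the fit to all rows it was higher as well (limma adjusted p = 1.95e-05). Of 8 fibroblast and stroma markers, Pdgfrb and Col1a1 had values, Pdgfrb higher in both fits and Col1a1 only with the filter, with a sum of 249.7 to 254 and then 333 to 357. The 6 mast cell and basophil markers summed to between 22345 and 24649 with DMSO and between 30628 and 31932 with GSK-LSD1, with Cpa3, Mcpt4 and Mcpt8 higher and Fcer1a lower. The 5 megakaryocyte markers summed to between 1923 and 2055 and then between 1727 and 1794, with Itga2b lower, Pf4 lower only with the filter (limma adjusted p = 0.0706 without it) and Gp1ba higher. Of the 9 myeloid leukemia markers 4 were higher and 3 lower, and their sum went from between 16762 and 18381 to between 19307.5 and 19863. The part of these markers in the values of Mmp8, Mmp9, Timp1 and Timp2 was not tested.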

How the data were processed

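RNA-seq of 3 DMSO and 3 GSK-LSD1 libraries, grouped by their titles, was used. The authors deposited a normalised signal for each gene and library. Judged from the values, this is reads divided by a factor per library, since all values up to about 20 times the smallest are whole multiples of it within 0.01. The submitters' processing notes name STAR, DESeq2, mm10 and GRCm38. The read counter, annotation and strand setting were not given in the sources used here. Libraries of a group differed by more than sampling noise (chi-square per degree of freedom 1.57 to 3.51) and were counted separately.

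limma 3.58.1 (R 4.3.3) was fitted to log2(value + 1) with a variance trend. Tests were two-sided, and p-values were adjusted after Benjamini and Hochberg over the whole table fitted (threshold 0.05). The main fit used 11588 genes with a value of at least 10 in at least 3 libraries. Fold changes on this scale understate changes of low genes. Positions and exon lengths are from GENCODE M21 (GRCm38) and start regions from RefSeq (GRCm38.p6).

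The 9 genes and all lists were chosen with earlier results of these data known. A few genes of the plasminogen and macrophage lists are not reported here and were left out of those lists' counts and sums. All 9 were named, with up to 4 genes in each direction per list and the other metalloproteinase genes that passed the filter. Mmp10, Mmp12, Mmp13, Mmp20, Mmp2, Timp4, Adam9, Adam10, Adam15 and Adam17 were named in addition, after their values were seen. So were Lcn2, Bsg, Itgb2, Hp, Cd177, Pglyrp1, Cybb, Ltf, Olfm4 and the neighbours of Mmp8 outside the family.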

Additional observations from a re-analysis of the deposited data

How the results depend on the processing

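The filter on low values, the pseudocount, the scaling, the variance trend, a replicate term and leaving out each library were varied. With a mean value of at least 50, 3 of the 7 genes were tested and 2 were higher, since Mmp9, Timp1 and Timp2 are below it. Timp2 lost its call under quantile scaling (log2 fold change 0.89). Adam8 was not past the threshold except without DMSO replicate 3. When single libraries were left out, its log2 fold change ranged from -0.132 to -0.0507, and the count of the 7 genes that were lower ranged from 0 to 1. No tested gene of the 7 was lower at an unadjusted p under 0.05 in limma with all libraries (0 genes), and no other tool was run. The calls of Mmp8, Mmp9, Mmp19 and Timp1 were kept in every alternative that tested them. With the replicate number as a block, 2345 genes were higher and 2316 lower, in place of 2389 and 2373, and no call of the 7 genes changed. After group means were removed, the correlations of same-numbered libraries were -0.0241, -0.0276 and -0.00771, so that no pairing was seen. With 3 libraries per group this cannot exclude that same-numbered libraries shared a culture. edgeR and DESeq2 on whole reads were planned and not run, because 2 libraries did not meet the criterion for recovered reads. Mmp14 was limited by depth, and Mmp25 and Timp3 gave no value.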
